A study of Mus musculus with 27 samples.

Results

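Sciatic nerve injury was examined in dorsal root ganglia, the clusters of sensory neuron cell bodies beside the spinal cord, of mice labelled as knockouts for Ptpn2. The comparison took the 3 knockout libraries collected 3 days after injury against the 3 knockout libraries from sham-operated animals, 6 of the 27 libraries of the series, over all 55367 genes of the deposited ganglion count table. The ganglia came from lumbar levels L4 and L5. Wild-type ganglia with sham surgery (3 libraries) and 3 days after sciatic injury (3 libraries) gave the same contrast without the knockout, and 3 injured wild-type libraries that received a cGAS inhibitor entered the fit only for the estimate of spread. The sample titles call the sham group intact. The text of the series mentions nerve tissue where each sample label gives the ganglion. The labels name neither the Cre driver or cell type behind the knockout in these ganglia nor the age of the mice. The labels do not say whether the replicates of a group came from separate animals, so the p-values measure the spread between these libraries only, which may be technical.

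Ptpn2 encodes a tyrosine phosphatase that removes phosphate from Janus kinases and STAT transcription factors and thereby limits signalling by interferons and by cytokines of the interleukin-6 family. Interferon signalling switches on a broad set of genes for guanylate-binding proteins, antiviral effectors, antigen presentation and chemokines. Injury to the sciatic nerve starts a separate programme in the injured sensory neurons, in which Atf3, Sox11 and Jun rise with growth-associated genes such as Sprr1a and Gap43, while many ion channels and transmitter genes fall. Macrophages and neutrophils also enter the ganglion after nerve injury.

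The 6 knockout libraries held 14813365 to 17260391 counts, and the 15 ganglion libraries 14813365 to 22414750. Genes with at least 1 count numbered 29580 to 32856 in the knockout libraries. Levels are given as CPM, the counts of a gene scaled to a common library size with TMM factors, and 3 counts, taken as the floor of detection, stood for 0.179 to 0.208 CPM in the knockout libraries. A gene is said to have risen or fallen where edgeR's quasi-likelihood test gave a Benjamini-Hochberg adjusted p under 0.05 over the 18517 genes tested, and ± after a log2 fold change is its standard error. Ptpn2 itself stood at 15.8, 12.1 and 10.5 CPM in the sham libraries and at 24.1, 26.5 and 18.5 CPM in the injured ones, so its reads were present in every knockout library and the groups did not overlap (log2 fold change 0.84 ± 0.22, edgeR adjusted p = 0.024). The counts sum all exons of the gene, so these levels check neither the deletion nor the genotype labels, on which the word knockout rests here. In 4 of the 6 fits that left out 1 knockout library the Ptpn2 difference was no longer called (edgeR adjusted p 0.079 to 0.12 in those fits).

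Features of the libraries touch the results. Injured library 1 of the knockout stood apart from injured libraries 2 and 3 in antiviral, interferon regulatory and chemokine genes, and the values without it are given beside those groups. In the wild-type sham group, library 2 differed from libraries 1 and 3, with 34115 detected genes against 26235 and 26802, a mitochondrial share of counts of 15.2% against 4.87% and 6.52%, and a summed level of skeletal muscle markers of 4535 CPM against 18.6 and 466 CPM. The other 12 ganglion libraries held 28803 to 34340 detected genes and a mitochondrial share of 7.83% to 18.6%, so on these measures wild-type sham libraries 1 and 3 were the ones outside that range. The part of these differences in the comparisons with wild type was not tested. In addition, the library numbered 3 lay between the other 2 of its group more often than any other number did. Among genes of at least 50 CPM that differed over 1.5-fold within the group, this held for 61.3% of 256 genes in knockout sham, 53.7% of 162 in knockout injured, 84.5% of 1745 in wild-type sham and 96.7% of 120 in wild-type injured. Without the libraries numbered 3 of every group, which leaves 2 libraries a group, 168 genes were called for injury in the knockout (157 higher and 11 lower) and 6 for injury in wild type.

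At 3 days after injury, knockout ganglia carried a broad interferon-inducible gene set together with the injury programme of sensory neurons. Gbp2, a guanylate-binding protein induced by interferon, was 20.9-fold higher in mean CPM, the chemokine gene Cxcl9 84.7-fold, the acute phase gene Saa3 69.2-fold and the axon growth gene Sprr1a 129-fold. Part of the ion channel, sensory transduction and synaptic genes of neurons fell, as did 4 of 8 markers of brown fat. Of the 18517 genes tested, 2021 (10.9%) were called, 1174 higher (6.34%) and 847 lower (4.57%). Leaving out 1 library of the knockout left 869 to 1388 calls, the fewest without sham library 1. Rises reached larger sizes than falls. Among the called genes, 81 rose by more than 4 on the log2 scale and 289 by 2 to 4, against 4 and 44 that fell by as much. Without regard to the test, 19.7% of all genes tested had every injured library above every sham library and 18.5% had every one below. These are bulk libraries, in which fewer cells of a type and less RNA per cell cannot be told apart.

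**Figure D1:**
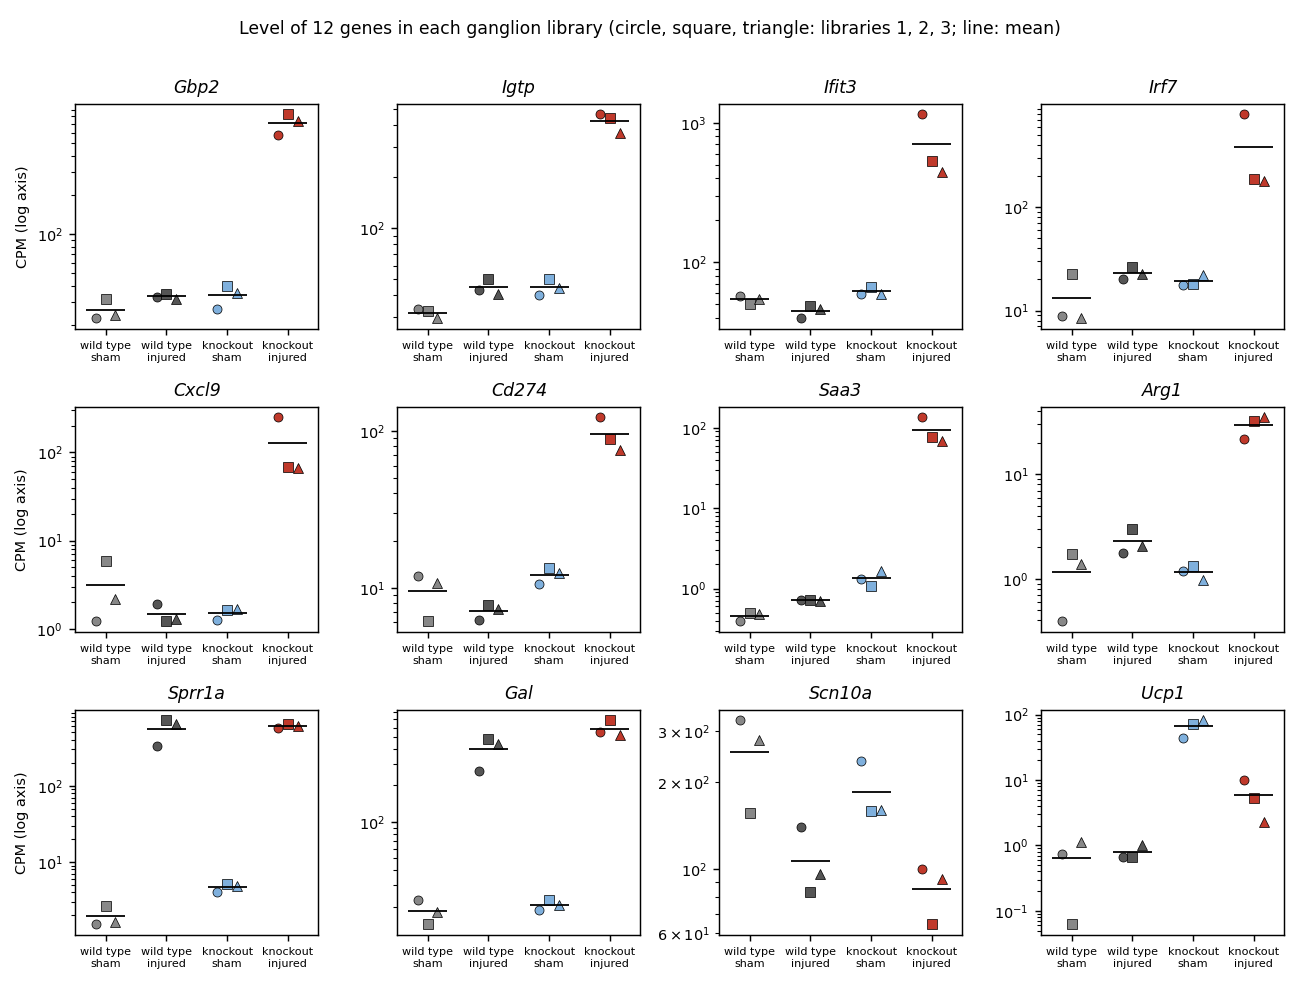
Level of 12 genes in each ganglion library, in CPM on a log axis, for wild-type sham, wild-type injured, knockout sham and knockout injured groups. Circles, squares and triangles are libraries 1, 2 and 3 of a group and the line is the mean. Gbp2, Igtp, Ifit3, Irf7, Cxcl9, Cd274, Saa3 and Arg1 were high in the injured knockout libraries alone, Sprr1a and Gal were high in the injured libraries of both genotypes, and Ucp1 was highest in the knockout sham libraries.

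The interferon-inducible GTPases, which bind to and break open the membranes around intracellular microbes, rose almost without exception. Of 19 tested, 18 rose and none fell in the knockout, with a median log2 fold change of 3.42 against -0.01 over all genes tested. This count was 18 in each of the 6 fits that left out 1 knockout library, and 15 without the libraries numbered 3. Igtp, an immunity-related GTPase (chromosome 11, 58199556 to 58207591, plus strand, in the Ensembl annotation of GRCm38), stood at 40.4, 49.96 and 44.3 CPM in the sham libraries and at 465, 446 and 360 CPM in the injured ones. The lowest injured library was thus several times the highest sham library, with a log2 fold change of 3.24 ± 0.15 (edgeR adjusted p = 1.0e-08). Gbp2 (chromosome 3, 142620602 to 142638008, plus strand) stood at 26.9, 39.8 and 35.6 CPM in sham and at 577, 829 and 736 CPM in injured libraries, a log2 fold change of 4.39 ± 0.24 (edgeR adjusted p = 5.0e-08). Unlike most interferon genes, Gbp2 was lowest in injured library 1, at 0.738 of the mean of the other two.

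Irgm1, which directs vacuole clearance in infected cells (chromosome 11, 48861968 to 48871683, minus strand), went from 10.3, 13.1 and 15.4 CPM to 157, 131 and 108 CPM (log2 fold change 3.35 ± 0.21, edgeR adjusted p = 1.2e-07). Iigp1 went from 19.4, 22.2 and 20.2 CPM to 325, 292 and 253 CPM, and Gbp7 from 34.6, 47.4 and 43.0 CPM to 299.9, 272 and 236 CPM. In both the 3 injured libraries lay close together and far above sham. Gbp10 and Gbp11 were near the floor in sham ganglia, at 0.299 to 0.624 and 0.0598 to 1.59 CPM, and reached 18.0 to 24.0 and 17.5 to 25.1 CPM after injury. Gvin1 was the member that did not pass (log2 fold change 2.16 ± 0.74, edgeR adjusted p = 0.073). Per kilobase of the deposited gene length, the injured level was 284 CPM for Gbp2, 210 for Igtp, 116 for Gbp3, 49.8 for Iigp1 and 48.0 for Gbp7, so Gbp2 stood highest of these 5 on that scale. Gbp2, Gbp3, Gbp5 and Gbp7 lie on chromosome 3 and Gbp4, Gbp6, Gbp8, Gbp9, Gbp10 and Gbp11 on chromosome 5, and both clusters took part. Gbp6 and Gbp10, and Tgtp1 and Tgtp2, are near-identical copies, and Igtp overlaps Irgm2 on the same strand, so the share of each within these pairs is uncertain.

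Upstream windows of 3 interferon genes and 1 injury gene, those with the smallest p for which a RefSeq window was at hand, are printed because the members of these groups moved together. Each window holds the 250 bases before the RefSeq start (GRCm38.p6), written 5′ to 3′ on the strand of the gene, with matched motifs in capitals. RefSeq and Ensembl starts differ, so the Irgm1 window lies wholly inside the Ensembl gene span given above, the Gbp2 window reaches into it with its response element, and the end of the Sprr1a window overlaps the Ensembl gene. The motifs searched on both strands were the interferon-stimulated response element as GAAA and GAAA with 2 bases of any kind between them, the gamma-activated site as TTCNNNGAA, the AP-1 site as TGANTCA and the cyclic AMP response element as TGACGTCA. The windows are chr11:58199306-58199555 on the plus strand for Igtp, chr3:142620413-142620662 on the plus strand for Gbp2, chr11:48871421-48871670 on the minus strand for Irgm1 and chr3:92485882-92486131 on the minus strand for Sprr1a.
Igtp: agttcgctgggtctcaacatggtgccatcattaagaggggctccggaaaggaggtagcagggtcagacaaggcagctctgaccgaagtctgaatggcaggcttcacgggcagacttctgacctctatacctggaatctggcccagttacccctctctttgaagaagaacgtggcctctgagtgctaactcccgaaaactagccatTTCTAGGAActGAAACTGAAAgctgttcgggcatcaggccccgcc
Gbp2: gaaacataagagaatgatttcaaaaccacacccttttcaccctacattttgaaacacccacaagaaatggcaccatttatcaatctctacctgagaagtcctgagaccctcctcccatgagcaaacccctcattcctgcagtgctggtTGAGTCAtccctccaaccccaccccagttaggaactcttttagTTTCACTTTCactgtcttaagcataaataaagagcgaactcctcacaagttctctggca
Irgm1: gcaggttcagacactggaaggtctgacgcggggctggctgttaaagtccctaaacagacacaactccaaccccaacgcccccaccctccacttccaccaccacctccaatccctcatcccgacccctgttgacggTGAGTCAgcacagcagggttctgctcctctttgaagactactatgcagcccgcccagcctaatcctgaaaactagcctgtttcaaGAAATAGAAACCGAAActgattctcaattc
Sprr1a: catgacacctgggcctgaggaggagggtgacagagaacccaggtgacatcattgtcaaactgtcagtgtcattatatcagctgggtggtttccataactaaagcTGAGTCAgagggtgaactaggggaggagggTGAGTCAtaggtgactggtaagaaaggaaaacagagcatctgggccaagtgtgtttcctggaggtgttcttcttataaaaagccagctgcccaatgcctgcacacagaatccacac

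The Igtp window held a gamma-activated site match, TTCTAGGAA, that began 45 bases before the start and an interferon-stimulated response element match, GAAACTGAAA, at 34 bases. In Gbp2 the response element was read on the opposite strand as TTTCACTTTC at 59 bases, with an AP-1 match, TGAGTCA, at 102 bases. Irgm1 had overlapping response element matches, GAAATAGAAA at 30 bases and GAAACCGAAA at 24, and an AP-1 match at 115. Sprr1a, printed as the injury gene, had AP-1 matches at 146 and 116 bases and neither interferon motif. Over the GTPases that rose and had a window, 10 of 11 (90.9%) held the response element and 6 (54.5%) the gamma-activated site, against 3.46% and 8.13% of all 27025 genes with a window. Among the antiviral effectors that rose, 11 of 25 (44%) held the response element and 5 (20%) the gamma-activated site. The response element was found in 3 of 12 class I genes (25%), 2 of 9 chemokine genes (22.2%) and 0 of 5 immunoproteasome genes that rose. It was found in 0 of 4 interferon regulatory factors, 1 of 3 STAT genes, 1 of 4 JAK-STAT brakes and 1 of 3 checkpoint genes that rose. Among injury genes that rose it was found in 1 of 4 neuropeptides (25%), 1 of 6 transcription factors (16.7%) and 1 of 12 growth-associated genes (8.33%). AP-1 matches were found in 2 of 12 growth-associated genes that rose (16.7%) and 0 of 6 injury transcription factors, against 7.82% of all genes with a window. Among the interferon and chemokine genes that rose, AP-1 matches were found in 6 of 25 antiviral effectors (24%), 2 of 9 chemokines (22.2%), 2 of 11 GTPases (18.2%), 0 of 12 class I genes and 0 of 5 immunoproteasome genes. The cyclic AMP response element was present in 1.77% of all genes with a window. A match describes these letters in this window and no binding was measured.

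Upstream of these targets, interferon transcripts were scarce. None of 10 interferon ligand genes had enough counts to be tested, and Ifng, which encodes interferon gamma, had 1 count over the 3 sham and 13 counts over the 3 injured knockout libraries, a ratio of 13.5 with a counting interval of 2.03 to 574. Its level in injured libraries 1, 2 and 3 was 0.626, 0 and 0.198 CPM. Of 10 receptor and Janus kinase genes, none was called by edgeR in the knockout and 3 rose in wild type, with median log2 fold changes of 0.23 and 0.43. None was called by edgeR for the difference between genotypes. In the knockout 2 had an unadjusted p under 0.05, against 4638 of all 18517 genes tested, and DESeq2 called 1 and limma-voom 2. Jak1 went from 341, 322 and 315 CPM to 305, 294 and 289 CPM (log2 fold change -0.14 ± 0.21, edgeR adjusted p = 0.75), and Ifngr2 from 96.2, 88.7 and 93.1 CPM to 118, 103 and 93.2 CPM (edgeR adjusted p = 0.39). For Ifngr2 the groups overlapped.

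Among genes of the transcription factors that Janus kinases activate, Stat5b rose by 0.78, Stat5a by 1.20 and Stat2 by 1.18 ± 0.30 on the log2 scale. Stat3, the main factor downstream of interleukin-6 type cytokines, went from 301, 275 and 266 CPM to 386, 348 and 365 CPM and was not called (log2 fold change 0.38 ± 0.20, edgeR adjusted p = 0.26). Among 9 interferon regulatory factors 4 rose, with a median of 1.41. Irf1 went from 24.2, 17.6 and 19.8 CPM to 67.8, 55.8 and 60.9 CPM, with the injured libraries close to one another (log2 fold change 1.58 ± 0.21). Irf7, the factor that amplifies type I interferon responses, went from 17.5, 18.0 and 21.9 CPM to 795, 189 and 178 CPM. Library 1 of the injured group was thus 4.33 times the mean of the other injured libraries, and the log2 fold change was 4.34 ± 0.54 with all libraries (edgeR adjusted p = 0.00012) and 3.23 ± 0.34 without injured library 1. Stat2 and Stat5a were no longer called without that library or without sham library 1, and Stat2 also without sham library 2 or 3 (edgeR adjusted p up to 0.15).

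Genes that restrain this pathway rose as well, 7 of 17 tested, with 5 or 6 in the fits that left out 1 knockout library. Socs1, which blocks Janus kinases, went from 3.83, 4.48 and 3.40 CPM to 21.0, 16.7 and 17.5 CPM (log2 fold change 2.23 ± 0.31). Usp18, which dampens type I interferon receptors, went from 13.0, 11.3 and 11.02 CPM to 259, 73.1 and 64.6 CPM, again highest in injured library 1 (3.49 ± 0.43, and 2.51 ± 0.24 without that library). Ptpn1, the phosphatase closest to Ptpn2 in sequence, went from 45.5, 47.5 and 47.4 CPM to 112, 103 and 84.3 CPM (1.09 ± 0.15). Socs3, the brake on interleukin-6 type signalling, rose by 1.38 ± 0.28, and Ptpn6 by 1.81 ± 0.41, the latter not called without sham library 1 (edgeR adjusted p = 0.059). Among 5 checkpoint ligands and Ido1, 3 rose. Cd274, which encodes the T cell inhibitory ligand PD-L1, went from 10.6, 13.3 and 12.5 CPM to 122, 89.3 and 76.0 CPM (2.98 ± 0.23, edgeR adjusted p = 1.5e-06). All 3 of its injured libraries lay far above sham.

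Antiviral effectors rose in 35 of 40 members tested and none fell, with a median log2 fold change of 2.16. Ifit3 went from 59.5, 66.4 and 59.6 CPM to 1148, 528 and 442 CPM (log2 fold change 3.51 ± 0.29, edgeR adjusted p = 2.2e-06). Rtp4 went from 20.8, 19.8 and 21.3 CPM to 184, 116 and 85.0 CPM (2.64 ± 0.23), and Oasl2 from 50.3, 51.5 and 48.4 CPM to 346, 183 and 162 CPM (2.20 ± 0.24). In each of these the groups were well separated and injured library 1 was the highest. Zbp1, a sensor of Z-form nucleic acid, went from 2.03, 4.66 and 3.19 CPM to 80.2, 43.1 and 44.2 CPM. Mx1, a GTPase that blocks influenza viruses, went from 2.81, 1.73 and 0.970 CPM to 57.9, 13.6 and 11.7 CPM, and Ifit1bl1 from 6.70, 7.29 and 6.38 CPM to 213, 22.9 and 22.3 CPM. Oas1c, Isg20, Ifi27, Trim21 and Tlr3 did not pass the test, with log2 fold changes of -0.29, 1.10, -0.23, 1.59 and 1.04.

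Injured library 1 differed from the other injured libraries in the antiviral group. The summed level of the antiviral list was 879, 1002 and 969 CPM in the sham libraries and 6640, 3001 and 2593 CPM in the injured ones. Over the 35 antiviral genes that rose, the level in injured library 1 was a median of 2.52 times the mean of the other 2, and for 31 of them it was over 1.5 times. The same median was 1.11 over all 1174 genes that rose, 2.48 for the Ly6 family, 1.79 for interferon regulatory factors, 1.20 for the GTPases, 1.57 for class I genes, 1.51 for chemokines, 1.02 for injury transcription factors and 0.98 for neuropeptides. Without injured library 1, 29 antiviral genes were called. The log2 fold change of Ifit3 was then 2.94 ± 0.17, that of Mx1 2.73 ± 0.57 and that of Ifit1bl1 1.70 ± 0.23, while that of Gbp2 was 4.49 ± 0.25. Summed markers of T and NK cells, which are sources of interferon gamma, were 120 CPM in injured library 1 against 67.1 and 64.3 CPM in the other injured libraries and 26.3 to 35.9 CPM in sham. The part of these cells in the antiviral levels was not tested.

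**Figure D2:**
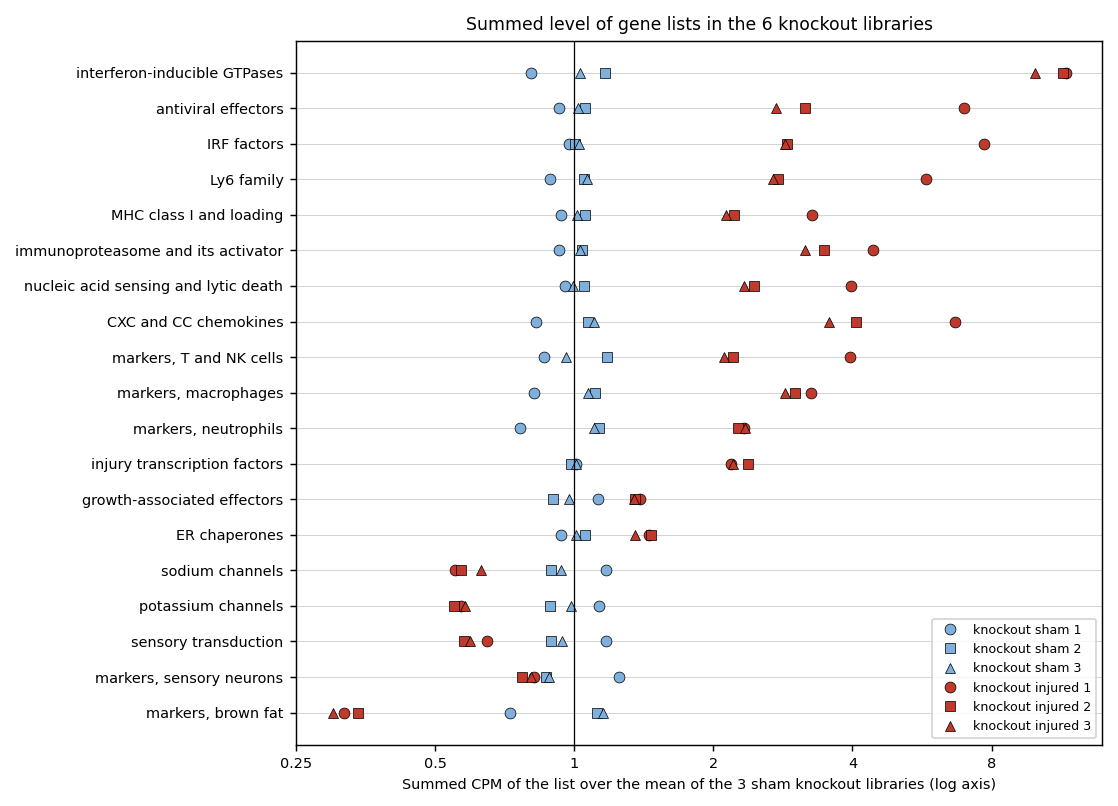
Summed CPM of 19 gene lists in each of the 6 knockout libraries, divided by the mean of the 3 sham libraries, on a log axis. The antiviral list reached 6640 CPM in injured library 1 against 3001 and 2593 CPM in the others, while the GTPase list was nearly level across the 3 injured libraries (2927, 2894 and 2516 CPM).

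Genes of class I antigen presentation, which shows peptides from inside a cell to T cells, rose together. Of 18 class I and peptide loading genes 15 rose, with a median log2 fold change of 1.70. Tap1, which pumps peptides into the endoplasmic reticulum, went from 17.5, 18.2 and 19.1 CPM to 154, 102 and 93.7 CPM (2.68 ± 0.25, edgeR adjusted p = 8.3e-06). B2m, the light chain shared by class I molecules, went from 640, 767 and 751 CPM to 3225, 2174 and 1999 CPM (1.78 ± 0.22), and H2-D1, a heavy chain, from 509, 575 and 550 CPM to 2315, 1330 and 1361 CPM (1.62 ± 0.18). Injured library 1 was again the highest of its group in all 3. H2-Q4 and the general chaperones Canx and Pdia3 were not called (0.12 and 0.39 for the chaperones). Counts of class I genes are uncertain where reads could fit several members of this family.

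All 5 genes of the immunoproteasome and its activator rose, with a median of 1.65 and in each fit without 1 knockout library. This proteasome form replaces the standard catalytic subunits when interferon is present. Psmb8 went from 38.7, 48.7 and 47.3 CPM to 367, 291 and 255 CPM (2.76 ± 0.28), and Psme2, an activator subunit, from 84.7, 87.2 and 88.9 CPM to 281, 252 and 217 CPM (1.52 ± 0.15). The standard core moved less, with 2 of 14 genes called, Psma7 at 0.48 and Psmb2 at 0.46, and a median of 0.28. An unadjusted p under 0.05 was reached by 9 of the 14, against 4638 of all 18517 genes tested. The summed core level was 2925, 3067 and 2968 CPM in sham and 3670, 3729 and 3486 CPM in injured libraries. For the difference from wild type, 0.33 to 0.66, all 14 had an unadjusted p under 0.05 and edgeR called none. Psmb5, the subunit that Psmb8 replaces, went from 154, 147 and 166 CPM to 162, 149 and 151 CPM (log2 fold change -0.01 ± 0.11). The 2 core calls were lost in 4 and 5 of the 6 fits without 1 knockout library. Class II genes were mostly not called, 2 of 10, with a median of 0.88. H2-DMa, a class II peptide loader, went from 29.0, 34.4 and 32.6 CPM to 70.9, 86.4 and 72.5 CPM (1.26 ± 0.17), whereas the invariant chain Cd74 (1.03 ± 0.41, edgeR adjusted p = 0.12) and the class II master regulator Ciita (0.83 ± 0.63, edgeR adjusted p = 0.45) did not pass.

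Chemokine genes rose in 15 of 21 members tested, with a median of 2.76, and in 12 to 15 in the fits without 1 knockout library. Cxcl9, which draws in T cells (chromosome 5, 92321347 to 92328079, minus strand), went from 1.26, 1.61 and 1.66 CPM to 250.5, 67.6 and 65.9 CPM, a log2 fold change of 6.40 ± 0.62 (edgeR adjusted p = 1.2e-05) and of 5.43 ± 0.47 without injured library 1. Its neighbour Cxcl10, a ligand of the same receptor, went from 5.15, 4.54 and 3.26 CPM to 116, 63.2 and 61.3 CPM (4.21 ± 0.33). Of the monocyte attractants, Ccl2 went from 3.95, 6.33 and 3.12 CPM to 58.4, 39.2 and 28.2 CPM, and Ccl7 from 3.47, 6.04 and 4.92 CPM to 69.2, 53.7 and 43.4 CPM. None of these 4 genes had overlapping groups. Cxcl11, the remaining ligand of that receptor, was not called (1.49 ± 0.61, edgeR adjusted p = 0.13).

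Cytokine genes were called less widely, 6 of 16, with a median of 1.18 in either genotype. Csf1, the macrophage growth factor that injured sensory neurons make, went from 13.1, 12.3 and 12.1 CPM to 62.1, 54.2 and 50.6 CPM (2.16 ± 0.32). Il1rn, the natural antagonist of interleukin-1, went from 4.25, 7.29 and 5.96 CPM to 71.1, 38.1 and 31.9 CPM. Il6 stayed low in absolute terms, at 0.479 to 1.14 CPM in sham and 3.14 to 4.07 CPM after injury (2.13 ± 0.42). Tests for Il33 and Il1b were lost in some fits without 1 knockout library, which called 3 to 6 cytokine genes. The receptors of interleukin-6 type cytokines gave 1 gene higher, Il6ra (1.20 ± 0.32), and 1 lower, Cntfr (-1.04 ± 0.31), of 7, and neither was called in any of those 6 fits.

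Of 16 acute phase genes 4 rose in the knockout, against 6.34% of all genes tested. In wild type 6 of the 16 rose and 1 fell, against 8.6% and 7.98%. Saa3, a serum amyloid made by stressed tissue and macrophages (chromosome 7, 46711998 to 46715700, minus strand), went from 1.32, 1.08 and 1.66 CPM to 135, 76.9 and 68.7 CPM (6.11 ± 0.28, edgeR adjusted p = 1.0e-08). Saa1 went from 0.778, 2.33 and 1.59 CPM to 63.7, 43.6 and 38.7 CPM, and its near-identical copy Saa2 from 0.179, 0.418 and 0.416 CPM to 29.6, 14.9 and 13.1 CPM. Serpina3n rose by 1.05 ± 0.25 and lost its call without injured library 2, sham library 1 or sham library 3 (edgeR adjusted p 0.056 to 0.079). Complement genes rose in 14 of 18 members tested, with a median of 1.81. C3, the component on which all activation routes converge, went from 16.4, 16.1 and 18.7 CPM to 92.5, 66.0 and 61.3 CPM (2.10 ± 0.33), and the inhibitor of the first component, Serping1, from 180, 228 and 206 CPM to 637, 475 and 432 CPM (1.33 ± 0.16). Cd55, which protects cells from complement, fell from 279, 270 and 263 CPM to 157, 131 and 154 CPM (-0.88 ± 0.27), a call that was lost in each fit without 1 knockout library. Without sham library 1 the complement genes called higher numbered 9, against 12 or 13 in the other such fits.

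Genes of nucleic acid sensing and lytic cell death rose in 17 of 19 members tested, with a median of 1.97. Sting1, the adaptor that is activated by the product of cGAS, went from 7.54, 9.32 and 8.39 CPM to 47.2, 37.5 and 37.2 CPM (2.27 ± 0.20). Cgas itself was low, at 1.08, 1.02 and 2.01 CPM in sham and 4.07, 4.22 and 6.81 CPM after injury (1.88 ± 0.47). Mlkl, the executioner of necroptosis, went from 2.39, 3.94 and 2.70 CPM to 30.1, 20.1 and 19.0 CPM (2.93 ± 0.39). Casp8 went from 6.82, 10.8 and 8.94 CPM to 31.7, 29.2 and 26.2 CPM, and the DNA sensor Ifi204 from 6.46, 7.65 and 7.14 CPM to 106, 45.8 and 41.6 CPM. The kinase Tbk1 (-0.05) and the inflammasome gene Nlrp3 (0.24) were the members without a call. The count was 9 without sham library 1, 10 without injured library 1 and 12 to 14 without any other knockout library. In wild type 9 of these 19 genes rose.

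**Figure D3:**
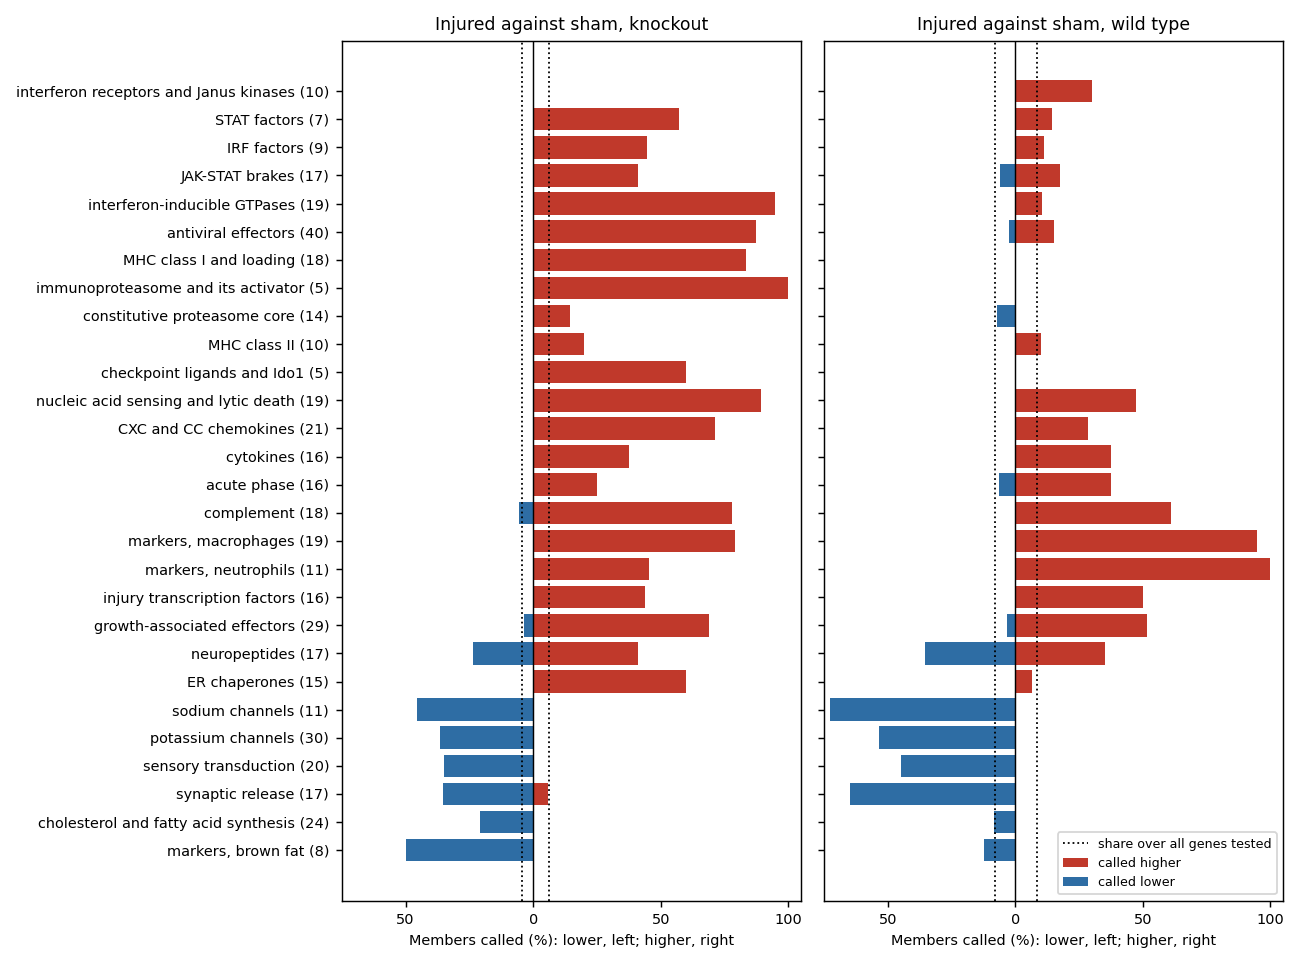
Percent of the tested members of each gene list called higher (right) and lower (left) after injury in knockout and in wild-type ganglia, with the number tested in parentheses and a dotted line at the share over all genes tested (6.34% higher and 4.57% lower in the knockout, 8.6% and 7.98% in wild type). Most interferon lists were called more widely in the knockout panel than in the wild-type panel, and the neuronal lists were called in both. Of 10 receptor and Janus kinase genes 0 rose in the knockout and 3 in wild type. Of 19 nucleic acid sensing genes 17 rose in the knockout and 9 in wild type.

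Genes of the sensory neuron injury programme rose as well. Of 16 injury transcription factors 7 rose, with a median of 0.72. Atf3, the factor that marks axotomized neurons, went from 22.3, 29.3 and 29.1 CPM to 433, 454 and 399 CPM (3.99 ± 0.38, edgeR adjusted p = 1.1e-05). Sox11, which is needed for axon growth, went from 15.8, 20.1 and 22.3 CPM to 130, 184 and 162 CPM (3.03 ± 0.29). Klf6 and Nfil3 rose by 1.09 ± 0.14 and 1.69 ± 0.27. In each of these 4 the injured libraries stood above all sham libraries, and no fit without 1 knockout library ended the call.

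Growth-associated genes rose in 20 of 29 members and 1 fell, with a median of 1.29 and with 17 to 19 higher in the fits without 1 knockout library. Sprr1a, a small proline-rich protein of regrowing axons (chromosome 3, 92483952 to 92485895, minus strand), went from 4.07, 5.08 and 4.92 CPM to 577, 638 and 599 CPM (7.01 ± 0.41, edgeR adjusted p = 1.0e-07). Gpr151, a receptor of injured axons, went from 3.05, 1.97 and 2.63 CPM to 116, 113 and 92.7 CPM (5.39 ± 0.41). The tubulin gene Tubb6 went from 24.3, 22.4 and 24.5 CPM to 149.6, 162 and 149 CPM, and the tubulin-binding gene Stmn4 from 12.7, 10.995 and 14.5 CPM to 93.0, 112 and 89.6 CPM. The 3 injured libraries were closer to one another in these genes than in the antiviral group. Arg1, arginase 1, which makes the precursor of polyamines, went from 1.20, 1.31 and 0.970 CPM to 21.9, 32.1 and 35.1 CPM (4.66 ± 0.48, edgeR adjusted p = 2.0e-05), with injured library 1 the lowest. Stmn3 was the member that fell (-0.42), and it was called in 1 of the 6 fits without a knockout library.

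Neuropeptide genes divided, 7 of 17 higher and 4 lower. Gal, galanin, went from 18.7, 22.8 and 20.5 CPM to 549, 689 and 523 CPM (4.83 ± 0.32), Nts, neurotensin, from 13.5, 8.78 and 13.5 CPM to 184, 185 and 156 CPM (3.88 ± 0.27), and Adcyap1, which encodes PACAP, from 67.7, 72.3 and 69.0 CPM to 254, 250.2 and 238 CPM (1.83 ± 0.24). Npy and Crh rose by 5.82 and 6.04 on the log2 scale. Calca, the gene of the pain peptide CGRP, fell from 1763, 1825 and 1718 CPM to 1202, 1153 and 1199 CPM (-0.58 ± 0.15), and Tac1, the gene of substance P, from 229, 170 and 184 CPM to 120, 68.4 and 84.7 CPM (-1.09 ± 0.26). Leaving out 1 knockout library left 6 neuropeptide rises in each case and 0 to 2 falls. Of 11 neurotrophic receptors 2 rose and 2 fell, with a median of -0.58, against 6.34% and 4.57% of all genes tested. Gfra1, a receptor for GDNF, went from 121, 116 and 121 CPM to 331, 283 and 269 CPM (1.30 ± 0.20). Gfra2 went the other way, at -1.33 ± 0.35 in the fit without injured library 1 (edgeR adjusted p = 0.04).

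Excitability and sensory genes fell with injury. Of 11 sodium channel genes 5 fell, of 30 potassium channel genes 11, of 14 calcium channel genes 2, of 20 sensory transduction genes 7, of 12 sensory identity factors 3 and of 17 synaptic release genes 6, against 4.57% of all genes tested. None of the 87 channel, transduction and identity genes in these lists rose, by edgeR, DESeq2 or limma-voom, and 0 had an unadjusted p under 0.05 in that direction. The calcium channel subunit gene Cacna2d1 was counted with the growth-associated genes and not in these lists. It rose by 1.38 ± 0.19 in the fit without injured library 1 (edgeR adjusted p = 0.0006). Scn4b, a sodium channel subunit, went from 64.0, 35.6 and 44.3 CPM to 18.9, 13.5 and 16.2 CPM (-1.56 ± 0.28), and Scn1a from 94.3, 83.3 and 86.6 CPM to 39.4, 43.8 and 45.7 CPM (-1.04 ± 0.23). Kcns3, a silent potassium channel subunit, went from 62.6, 59.6 and 60.2 CPM to 26.0, 21.4 and 26.2 CPM (-1.31 ± 0.19, edgeR adjusted p = 0.00043), and the accessory subunit Kcnip1 fell by 1.48 on the log2 scale. Sham and injured libraries did not overlap for any of these 4. Htr3a, a serotonin-gated channel, went from 152, 131 and 130 CPM to 59.0, 48.8 and 39.7 CPM (-1.48 ± 0.26), the identity factor Etv1 from 157, 149 and 149 CPM to 52.7, 73.0 and 73.8 CPM (-1.19 ± 0.23), and the release gene Cplx2 from 126, 89.6 and 107 CPM to 49.0, 49.9 and 54.5 CPM (-1.07 ± 0.21). These 7 genes that fell kept their calls in all 6 fits without 1 knockout library.

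Other neuronal falls rested on the full set of libraries. Scn10a, the sodium channel of pain neurons, went from 238, 159 and 160 CPM to 100.2, 64.4 and 92.5 CPM (-1.11 ± 0.32), with sham library 1 the highest, and was not called in any fit without 1 knockout library (edgeR adjusted p 0.056 to 0.17). Nefh, the heavy neurofilament of large neurons, went from 536, 349 and 440 CPM to 219, 232 and 199 CPM (-1.03 ± 0.29) and lost its call in 5 of the 6 fits. In those fits the numbers called lower were 2 to 4 sodium channels, 2 to 13 potassium channels, 0 or 1 calcium channels, 1 to 6 transduction genes, 1 identity factor and 1 to 4 release genes. The fewest potassium channels were called without sham library 1, and the fewest transduction genes without injured library 2. The summed level of the sensory neuron markers was 6089, 4223 and 4285 CPM in sham and 3973, 3751 and 3924 CPM in injured libraries, so it was highest in sham library 1, and its part in the neuronal falls was not tested. Cplx3, a complexin of synaptic release, went the other way, from 3 counts over the sham libraries to 656 counts over the injured ones, a ratio of 227 with a counting interval of 77.5 to 1105.

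Protein folding genes of the endoplasmic reticulum rose in 9 of 15 members in the knockout and in 1 of 15 in wild type, with medians of 0.61 and 0.04. Over all genes tested the shares that rose were 6.34% and 8.6%, so the wild-type count was near its share. Hspa5, the main chaperone of that compartment, went from 416, 508 and 464 CPM to 789, 748 and 683 CPM in the knockout (0.68 ± 0.13, edgeR adjusted p = 0.0037). Its level in wild type was 454, 361 and 425 CPM in sham and 411, 386 and 421 CPM in injured libraries. The difference between genotypes did not pass the test (0.70 ± 0.18, edgeR adjusted p = 0.14), and no gene of this list did by edgeR. An unadjusted p under 0.05 for the difference was reached by 8 of 15, against 1811 of all 18517 genes tested, and DESeq2 called 4 and limma-voom 7. Sdf2l1 rose by 1.10 ± 0.17 and Creld2 by 0.96 ± 0.16 in the knockout. Leaving out 1 knockout library left 5 to 7 of the 9 calls, the fewest without injured library 1. Of 17 integrated stress response genes 4 rose, led by Nupr1 (8.97, 13.4 and 12.3 CPM against 59.0, 62.4 and 61.8 CPM), and Ddit4 fell by 0.83 on the log2 scale.

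Sterol and fatty acid synthesis genes fell in 5 of 24 members, with a median of -0.36. Fasn, fatty acid synthase, went from 148, 122 and 147 CPM to 71.6, 72.2 and 75.4 CPM (-0.93 ± 0.19), and Stard4, a sterol carrier, fell by 0.82 on the log2 scale. These 2 kept their calls without any 1 knockout library, while the list as a whole had 2 to 4 calls there. Matrix genes rose in 5 of 29, led by Timp1, an inhibitor of matrix proteases, from 3.23, 5.86 and 3.74 CPM to 95.2, 90.3 and 70.6 CPM (4.31 ± 0.64), and Mmp3, a matrix protease (4.81 ± 0.72). Of 14 cell cycle genes 1 rose in the knockout, Mcm5, against 13 in wild type, with medians of 0.77 and 1.72. Over all genes tested 6.34% rose in the knockout and 8.6% in wild type. The knockout log2 fold changes ran from 0.11 to 1.12, and 7 of the 14 had an unadjusted p under 0.05. The summed level was 420 to 472 CPM in knockout injured and 470 to 526 CPM in wild-type injured libraries. In sham it was 215 to 299 CPM in the knockout and 128, 256 and 144 CPM in wild type. No cell cycle gene was called by edgeR for the difference between genotypes (4 at an unadjusted p under 0.05, against 1811 of all 18517 genes tested, 0 by DESeq2 and 9 by limma-voom).

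By absolute change of mean CPM the largest gains were structural and immune genes. Actb, cytoplasmic actin, went from 2911, 2998 and 2895 CPM to 5332, 5501 and 5238 CPM (0.87 ± 0.12), followed by B2m, and Lyz2, lysozyme of macrophages and neutrophils, went from 500.4, 711 and 692 CPM to 2314, 2073 and 2077 CPM (1.76 ± 0.39). The largest loss was Apoe, the lipid carrier of satellite glia, from 8446, 9135 and 8999 CPM to 5473, 7015 and 6459 CPM (-0.49 ± 0.14), though its call was lost in every fit without 1 knockout library (edgeR adjusted p 0.062 to 0.14). Dgkh, a diacylglycerol kinase, fell from 615, 592 and 615 CPM to 244, 286 and 325 CPM (-1.09 ± 0.21) and kept its call in all 6.

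Markers of other cells moved with injury. Of 19 macrophage markers 15 rose, with a median of 1.76, and their summed level was 1202, 1632 and 1572 CPM in sham and 4786, 4408 and 4192 CPM in injured knockout libraries. Cd68 went from 9.69, 12.8 and 12.5 CPM to 64.2, 66.4 and 53.5 CPM (2.39 ± 0.37), and Fcgr1, an antibody receptor that interferon gamma also induces, from 2.15, 3.70 and 4.16 CPM to 83.8, 24.2 and 28.2 CPM (3.77 ± 0.53). Without sham library 1 the macrophage count was 10, and without any other it was 14. Summed neutrophil markers were 2297, 3405 and 3305 CPM in sham and 6988, 6780 and 7032 CPM after injury, with 5 of 11 called and 0 to 2 in the fits without 1 knockout library. Of 19 T and NK cell markers 4 rose, Cd4, Gzmb, Lck and Trbc2, and of these Cd4 (2.53 ± 0.53) kept its call throughout. No marker of B cells, mast cells, red blood cells, endothelium, pericytes, skeletal muscle, myelinating Schwann cells or repair Schwann cells was called by edgeR, 6 of these 53 had an unadjusted p under 0.05, and DESeq2 called 1 and limma-voom 5. Over all 18517 genes tested, 4638 had an unadjusted p under 0.05 for injury in the knockout. Satellite glia markers gave Gfap higher (7.84, 16.4 and 11.1 CPM against 41.0, 107 and 74.4 CPM) and Apoe and Aldoc lower. The interferon gene sets and these immune markers rose in the same libraries, and the part of infiltrating cells in the interferon levels was not tested.

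Markers of brown fat fell in 4 of 8 members and those of fat in general in 5 of 12, with medians of -1.94 and -1.52. None rose, but the log2 fold changes ran from -4.45 to 2.00 and from -3.92 to 1.32. In the fit without injured library 1, Dio2 (1.92) and Zic1 (0.41) of brown fat and Car3 (1.35) of fat were positive and not called. Ucp1, the uncoupling protein of brown fat, went from 43.1, 72.8 and 81.5 CPM in sham to 9.83, 5.35 and 2.25 CPM in injured knockout libraries (-3.50 ± 0.49, edgeR adjusted p = 0.00038). In wild type it was at 0.0623 to 1.12 CPM in every sham and injured library, so the knockout sham libraries were the high ones. Thrsp, a lipogenic gene, went from 69.8, 82.2 and 94.1 CPM to 24.7, 24.5 and 19.2 CPM (-1.84 ± 0.17), and Pck1, an enzyme of glucose and glycerol synthesis, from 12.9, 20.1 and 20.7 CPM to 2.63, 0.335 and 0.529 CPM (-3.92 ± 0.61). Summed brown fat markers were 112, 171 and 177 CPM in knockout sham, 46.1 to 52.1 CPM in knockout injured and 38.8 to 76.8 CPM in the wild-type libraries. Gpd1, a glycerol phosphate enzyme, and Epas1, a hypoxia-inducible factor, fell in the same libraries, and the part of adherent fat in these falls was not tested.

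Set against the same injury in wild-type ganglia, most genes that edgeR called for a larger rise in the knockout with all libraries were interferon genes. Wild-type injury called 3070 of 18517 genes (16.6%), 1593 higher (8.6%) and 1477 lower (7.98%). The test of the difference itself, the interaction of injury and genotype, called 83 genes (0.448%), 57 with a more positive change in the knockout (0.308%) and 26 with a more negative one (0.14%). Of the 57, 40 were in the interferon lists and 5 in the chemokine, cytokine, acute phase or complement lists, and all 57 were among the genes that rose in the knockout. The median log2 fold change of these 57 was 3.24 in the knockout and 0.18 in wild type. Of 605 genes that rose in both genotypes 4 were called for the difference, of 503 that fell in both 0 (7 at an unadjusted p under 0.05, 1 by DESeq2 and 13 by limma-voom), and of 568 that rose in the knockout and were not called in wild type 52. An unadjusted p under 0.05 for the interaction was reached by 1811 of the 18517 genes tested. Without wild-type sham library 2 the interaction called 666 genes, and leaving out any 1 library gave 37 to 666.

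By group, the interaction was called for 13 of 19 GTPases, 11 of 40 antiviral effectors, 6 of 18 class I genes, 4 of 5 immunoproteasome genes and 4 of 21 chemokines, all in the direction of a larger rise in the knockout. Without injured library 1 these counts were 11, 8, 3, 3 and 2, and leaving out any 1 knockout or wild-type library gave 11 to 15, 5 to 17, 3 to 11, 2 to 4 and 2 to 4. Gbp2 stood at 22.6, 31.7 and 24.1 CPM in wild-type sham and 33.0, 34.8 and 32.1 CPM in wild-type injured libraries, against 577 to 829 CPM in injured knockout libraries, a difference of log2 fold changes of 4.04 ± 0.31 (edgeR adjusted p = 9.8e-06). Cxcl10 went from 8.10, 9.34 and 10.5 CPM to 4.58, 6.17 and 6.77 CPM in wild type, where it was not called, and the difference was 4.88 ± 0.44. Arg1 was the growth-associated gene with a call, at 1.77, 3.03 and 2.06 CPM in injured wild type against 21.9 to 35.1 CPM in the injured knockout (3.66 ± 0.65, edgeR adjusted p = 0.018), a call lost in 6 of the 12 fits without 1 library (edgeR adjusted p up to 0.077). Of the 29 growth-associated genes, 10 had an unadjusted p under 0.05 for the difference, against 1811 of all 18517 genes tested. The median difference of these 29 was 0.44. Saa3 stood at 0.709 to 0.732 CPM in injured wild type, and its difference was 5.45 ± 0.48. No gene of the injury transcription factor, neuropeptide and sodium, potassium or calcium channel lists was called by edgeR for the difference (5 of 88 at an unadjusted p under 0.05, 0 by DESeq2 and 6 by limma-voom). For Sprr1a, at 329, 719 and 638 CPM in injured wild type, it was -1.19 ± 0.50 (edgeR adjusted p = 0.45), and for Atf3 -1.22 ± 0.49 (edgeR adjusted p = 0.42), with Atf3 at 6.36 to 9.34 CPM in wild-type sham against 22.3 to 29.3 CPM in knockout sham.

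**Figure D4:**
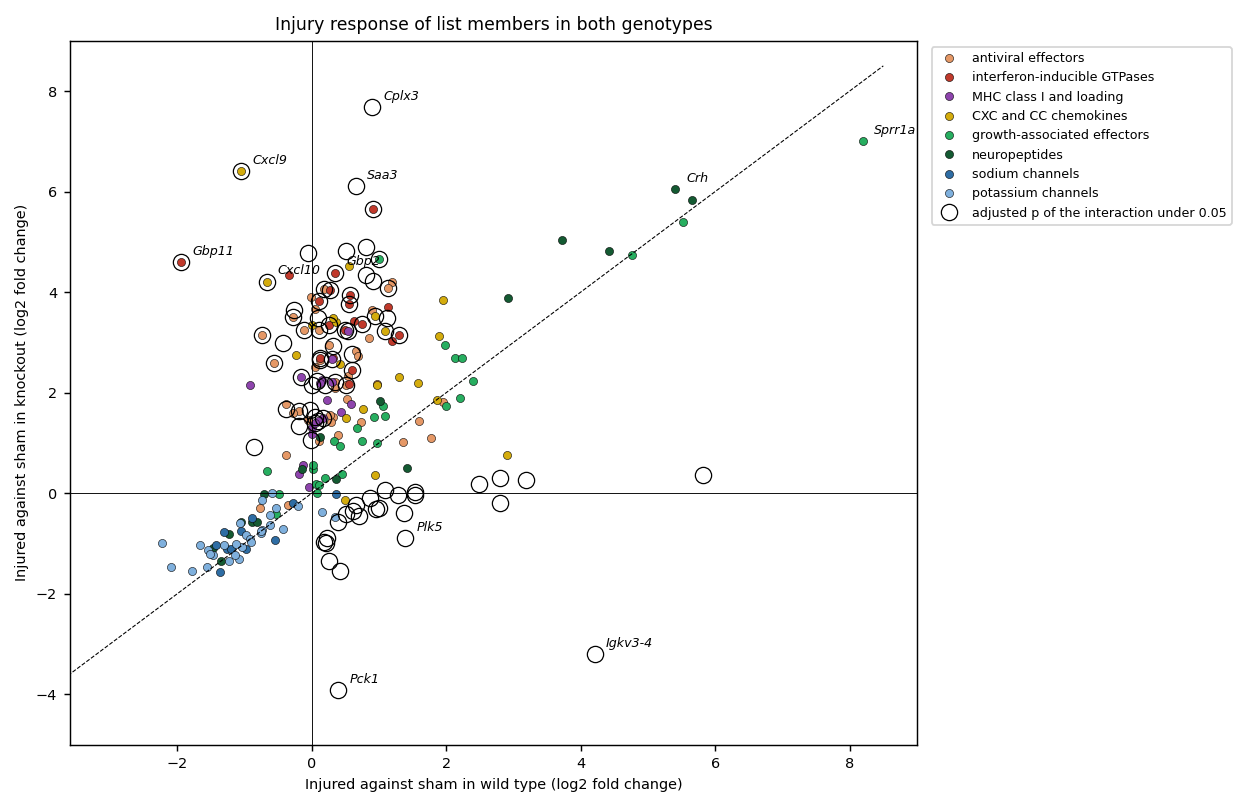
Log2 fold change after injury in knockout (vertical) against wild-type ganglia (horizontal) for members of 8 gene lists, with genes called for the difference circled and a dashed line where both are equal. Ankrd1, with 0 counts in knockout sham, is left out. GTPases and class I genes lie above the line, most antiviral genes do too, and sodium and potassium channel genes mostly lie along it. Growth-associated genes had a median difference of 0.44, toward a larger rise in the knockout.

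A few genes went opposite ways in the genotypes. Camsap1, a protein that binds microtubule minus ends, went from 30.5, 27.4 and 22.3 CPM to 45.5, 59.95 and 45.8 CPM in the knockout and from 26.1, 39.0 and 33.8 CPM to 15.6, 15.4 and 23.4 CPM in wild type, with no overlap in either (difference 1.78 ± 0.33, edgeR adjusted p = 0.022). Plk5, a kinase-like gene expressed in neurons and glia, went from 8.20, 10.8 and 8.46 CPM to 5.07, 4.88 and 4.76 CPM in the knockout and from 7.14, 9.03 and 6.15 CPM to 22.9, 18.0 and 17.7 CPM in wild type (-2.29 ± 0.30, edgeR adjusted p = 0.0012). Paqr6, Slc36a2 and the immunoglobulin gene Igkv3-4 also fell in the knockout and rose in wild type. In the fits without 1 knockout library the knockout fall of Plk5 was lost once, without sham library 2 (edgeR adjusted p = 0.061), that of Igkv3-4 in 4 fits and that of Paqr6 in 5, and the rise of Camsap1 in 3. The difference between genotypes for Camsap1 lost its call in 6 of the 12 fits without 1 library, and that for Plk5 in none (edgeR adjusted p up to 0.007).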

How the data were processed

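Polyadenylated RNA of mouse L4-L5 ganglia was made into SMART-Seq v4 libraries with Tn5 and sequenced as paired reads, per the labels' protocols. Trim Galore, STAR and the GRCm38 (mm10) genome are named in the submitters' processing notes. The deposited counts are whole-number read counts per gene made by the authors with featureCounts 2.0.1 over exons of Ensembl release 101, with primary alignments of mapping quality of at least 10 and without regard to strand, per the file headers. The command in that header names 20 alignment files, of which the table holds 15. Without strand, reads of overlapping and antisense genes cannot be told apart.

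Samples were grouped by genotype and treatment labels. Genes were filtered with filterByExpr (minimum count 10, minimum total 15), scaled by TMM and fitted with edgeR 4.0.16 (R 4.3.3, robust quasi-likelihood, prior count 0.125) over all 15 ganglion libraries with 1 mean per group, from which injury in the knockout, injury in wild type and their difference were taken. P-values were adjusted over all 18517 genes tested, and the biological coefficient of variation was 0.262. The standard error is the log2 fold change divided by the square root of the test statistic. Gene lists received no test. Intervals on counts cover counting error only.

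The members, the gene lists and the rule for named genes were chosen with earlier results of these data known. Named genes were Ptpn2 and 4 marker genes, the 12 largest log2 changes in each direction, the 10 largest changes of mean CPM in each direction and the 10 smallest p-values (called, at least 5 CPM, groups not overlapping), the 8 largest interaction values in each direction, genes called in opposite directions, the 6 genes least even among injured libraries, and up to 5 called members of each list. Other list members named for their role, and those without a call, were chosen after their values were seen. Alternatives were DESeq2 1.42.0, limma 3.58.1 voom, DESeq2 size factors, no filter, a replicate block, the compared groups alone, a covariate and each knockout and wild-type library left out in turn. The scripts were tested on simulated data. The other libraries of the series were not used here. Results of 1 gene are not reported here.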

Additional observations from a re-analysis of the deposited data

Results flagged for a closer look

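The change after injury differed between knockout and wild-type ganglia, by the edgeR interaction test, for 83 genes. Values below are the log2 fold change in the knockout minus that in wild type, and each passed at an adjusted p under 0.05 with all libraries.

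Among interferon-inducible GTPases the difference was 4.04 for Gbp2, 3.70 for Iigp1, 2.75 for Igtp, 2.56 for Gbp7, 3.10 for Irgm1, 6.54 for Gbp11, 1.85 for Gbp9 and 4.75 for Gbp10. For Gbp11 the wild-type part of it was a log2 fold change of -1.94 that was not itself called. Among antiviral effectors it was 3.79 for Ifit3, 2.52 for Rtp4, 1.85 for Oasl2, 1.64 for Xaf1 and 2.95 for Zbp1.

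Signalling genes with a difference were Irf7 at 3.53, Socs1 at 2.15, Usp18 at 3.40 and the checkpoint ligand Cd274 at 3.41. Class I presentation genes were H2-T22 at 2.47, Tap1 at 2.37, Tapbp at 1.33 and Tap2 at 1.34, and immunoproteasome genes were Psme2 at 1.48, Psmb10 at 1.53, Psme1 at 1.67 and Psmb8 at 2.16. Chemokines were Cxcl9 at 7.45, Cxcl10 at 4.88, Ccl7 at 2.59 and Ccl2 at 2.13. The acute phase gene Saa3 was at 5.45, the Ly6 family gene Ly6a at 2.60, arginase Arg1 at 3.66, the complexin Cplx3 at 6.78, the ion channel-like gene Calhm6, which is in none of the channel lists, at 4.30 and Camsap1 at 1.78. Cplx3 had 3 counts in all over the knockout sham libraries, so its fitted value depends on the prior count.

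More negative changes in the knockout were found for Plk5 at -2.29, Car4 at -1.98, Gpd1 at -1.61, Igkv3-4 at -7.41, Inka2 at -1.12, Paqr6 at -0.92, Slc36a2 at -0.96, Epas1 at -1.22, Kank1 at -1.14 and Pck1 at -4.32. Car4, a carbonic anhydrase, stood at 11.7, 16.6 and 14.3 CPM in knockout sham and 4.01, 6.02 and 4.43 CPM in knockout injured libraries, against 5.98 to 7.23 and 8.32 to 10.3 CPM in wild type. For Gpd1 the knockout sham libraries held 107, 149 and 157 CPM against 61.9 to 66.5 CPM in wild-type sham, and for Epas1 223, 238 and 270.3 CPM against 152 to 162 CPM, so the knockout sham libraries were the high ones in all 3 genes.

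Leaving out each of the 12 knockout and wild-type libraries in turn ended the interaction call in at least 1 fit for 24 of the genes named above. Socs1, Cplx3, Epas1, Kank1 and Pck1 lost it in 10 of the 12 fits, Ccl2, Ccl7, Paqr6, Slc36a2, Xaf1 and Zbp1 in 8, Gbp10 and Psmb8 in 7, Arg1, Camsap1, Inka2, Irf7, Ly6a, Oasl2 and Tap2 in 6, Usp18 in 4, and Calhm6, Igkv3-4 and Psme1 in 3. The adjusted p reached 0.389 for Cplx3 and 0.194 for Pck1, and it stayed at or under 0.166 for the rest. Without injured knockout library 1 the call was lost for 13 genes, Tap2, Psmb8, Calhm6, Gbp10, Paqr6, Slc36a2, Ccl7, Xaf1, Zbp1, Epas1, Socs1, Kank1 and Ccl2 (adjusted p 0.0509 to 0.166). With the replicate block Irf7 was not called either (adjusted p = 0.0818).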

How the results depend on the processing

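No named gene reversed its direction under any alternative. For injury in the knockout (2021 calls), limma-voom gave 4417, the compared groups alone 4102 and a covariate for each library's count of detected genes, chosen after seeing the data like the next, 3070, while leaving out the libraries numbered 3 gave 168. Leaving out 1 library gave 869 to 3662, the most without wild-type sham library 2. For injury in wild type (3070 calls) the same settings gave 9264, 1702, 849 and 6, and leaving out 1 library gave 1240 to 6513. For the interaction (83 calls) no filter gave 423, DESeq2 295, limma-voom 2008, the replicate block 130, the covariate 375 and leaving out the libraries numbered 3 gave 13. Leaving out 1 library gave 37 to 666. The share of calls for injury in the knockout that were higher, 58.1%, was 70.6% without injured library 2 and 93.5% without the libraries numbered 3. It was 53.4% with the compared groups alone and 49.5% without wild-type sham library 2, where 1811 genes rose and 1851 fell. The interaction split of 57 higher to 26 lower became 209 to 214 without the filter, 146 to 149 with DESeq2, 779 to 1229 with limma-voom and 60 to 70 with the block. It was 255 to 411 without wild-type sham library 2 and 37 to 4 without knockout sham library 2. The cause of these shifts was not tested.

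Of 213 named genes, 80 lost their call in at least 1 fit without a knockout library, and over the 6 other planned settings 15 of 1278 values lost it. Without the libraries numbered 3, 147 of the 213 lost it. Between sham and injured libraries with the same replicate number, deviations from the group means had correlations of -0.04 to 0.01 in the knockout. In wild type these were -0.10 to -0.0049. Each mean rests on 3 libraries, so these values cannot tell whether the same number marks a shared animal or preparation. With the replicate block 2478 genes were called for injury in the knockout and 3525 in wild type. At this depth the interferon ligand genes, Ifng among them, had too few counts to be tested.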
